A study of Bubalus bubalis with 8 samples.

Results

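The keratins of the mammary epithelium were followed in cultured mammary epithelial cells (MECs) of the riverine buffalo (Bubalus bubalis) after heat stress. Every array probe that carried the gene name KRT5, KRT7, KRT8, KRT10, KRT14, KRT15, KRT17, KRT18 or KRT19 was taken, which gave 21 of the 43653 probes and 9 of the 24839 gene names. KRT7, KRT8, KRT18 and KRT19 were treated as luminal keratins (10 probes) and KRT5, KRT10, KRT14, KRT15 and KRT17 as basal keratins (11 probes). No measured value was used in this choice.

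Keratins are the intermediate filament proteins of epithelial cells, and their filaments are built from pairs of 1 type I and 1 type II chain. In the mammary gland, KRT8 and KRT18, with KRT7 and KRT19, are known from the luminal cells that line the alveoli and ducts, whereas KRT5 and KRT14, with KRT17 and KRT15, are known from the basal layer, which includes the contractile myoepithelial cells. KRT10 is best known from the suprabasal layers of the epidermis. The filaments are anchored at desmosomes and are known to be rearranged in stressed cells.

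The cells came from the mammary tissue of 1 adult female buffalo, were cleared of fibroblasts by selective trypsinisation and were used at the 10th passage. The treated plate was held at 42 °C for 1 h and then returned to 37 °C with 5% CO2, and its cells were taken after 7 recovery times, 30 min and then 2, 4, 8, 12, 16 and 24 h. The control plate (CTR) stayed at 37 °C throughout and contributed 1 array without a time of harvest in its labels. All groups shared the donor, the medium and the collagen coating, and the study stained its cultures for cytokeratin 18 and for vimentin. Cy3-labelled RNA was put on 1-colour bovine 44K oligonucleotide arrays, so probes designed on cattle sequence read buffalo transcripts. Each group had 1 array, so there was no replicate spread to test against and p-values are not given. The small number of arrays is the main limit on precision.

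Levels are given as log2 of the processed intensity over the 75th percentile of the same array, and a change is the difference of a level from that of CTR. Levels of different probes are not compared with each other, since a probe's brightness also depends on its sequence. The error quoted as ± is a technical one, the spread between repeated spots of 1 probe combined for both arrays. For a mean over the probes of a gene it was divided by the square root of their number, and the spread between those probes is not in it. The 30 min array has no usable spread of its own, since its values come from the deposited table with 1 value a probe, and the spread of CTR stands in for it. A ± given for 30 min therefore holds no measurement of that array. For a single probe it was 0.31 after 30 min, 0.34 after 2 h, 0.34 after 4 h, 0.32 after 8 h, 0.34 after 12 h, 0.51 after 16 h and 0.39 after 24 h on the log2 scale, and it does not cover differences between cultures. Scaling each array to its median moved every change by 0.96 after 30 min, 0.70 after 2 h, 1.09 after 4 h and at most 0.42 in size at the other times. Under it the changes of KRT7, KRT19, KRT5 and KRT14 after 4 h turned positive (0.25, 0.19, 0.48 and 0.80), and KRT8 and KRT15 kept their direction on the slide 2 arrays. A probe that was not well above background on 1 of both arrays has only a bound ("at least"), with the dim array set to its detection limit or to its own value where that was higher.

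CTR, 8 h, 12 h and 24 h were hybridised on 1 slide (slide 1) and 30 min, 2 h, 4 h and 16 h on the other (slide 2), so for slide 2 the time after heat and the slide cannot be told apart in a comparison with CTR. A part of the CTR array, holding 6.35% of the probes, was dark, as were 3.76% of the probes after 16 h and 0.460% after 24 h. Values in these parts were left out. The median change of the 7149 probes that were bright on all 8 arrays lay between -0.27 and 0.00 over the 7 time points. The 30 min values come from the deposited log2 table, since the scanner intensities of that array departed from it (r = 0.21 across probes for the change from CTR, against 1.00 after 2 h). Genes of milk proteins, leukocytes and fibroblasts also differed between the arrays. The log2 of the summed level of 7 milk protein genes was 3.28 to 3.86 on the slide 1 arrays and 7.86 after 30 min, 6.85 after 2 h, 10.8 after 4 h and 11.7 after 16 h, and that of 8 leukocyte genes was 3.49 to 4.01 on slide 1 and 8.45, 7.62, 4.63 and 5.58 at those times. All 7 milk protein genes and 7 of the 8 leukocyte genes were well above background on at least 1 array, with CD79B dim on all. Of the 4 fibroblast genes with a change, 3 were at least 3-fold lower after 2 h (COL1A1 at -2.69, COL3A1 at -2.25 and DCN at -2.11) and 2 after 4 h. Of all probes compared, 7.67% and 5.17% were lower at those times. COL1A1, COL3A1 and DCN had no probe well above background on all 8 arrays, so their means can include bounds. After 16 h none of 9 was lower and 2 were higher (DCN at 3.40 and COL1A2 at 2.65, means that include bounds), against 3.94% and 5.05% of all probes. No fibroblast gene reached 3-fold on slide 1, where at most 0.555% of all probes were lower and at most 0.469% higher. The part of these signals in the keratin values was not tested. In a culture with mixed cells, fewer cells of a type and less RNA per cell cannot be told apart.

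The probes that separate close relatives are shown first, because 2 pairs of keratins share much of a probe. Sequences are 60 bases long, written 5′ to 3′ as on the array, and positions are those given by the array design on the cattle build Btau_3.1. No gene model of this build was used here, so exons and introns are not stated. Capitals mark the bases that are identical in the best ungapped alignment of the pair.
KRT15 A_73_P444261 (chr19:43081086-43081145, minus strand): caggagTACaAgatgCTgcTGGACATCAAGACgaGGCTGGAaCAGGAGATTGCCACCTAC
KRT19 A_73_P251856 (chr19:43089461-43089520, minus strand): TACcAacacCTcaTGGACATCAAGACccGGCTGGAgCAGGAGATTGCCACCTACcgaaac
KRT14 A_73_P309126 (chr19:43151143-43151174, minus strand): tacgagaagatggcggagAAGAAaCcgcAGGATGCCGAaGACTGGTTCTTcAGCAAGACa
KRT17 A_73_P037816 (chr19:43194874-43195552, minus strand): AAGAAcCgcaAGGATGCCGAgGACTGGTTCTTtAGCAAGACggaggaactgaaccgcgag
The KRT15 and KRT19 probes shared 44 of 54 aligned bases with a longest run of 18, and the KRT14 and KRT17 probes 35 of 42 with a longest run of 11. The position entry of the KRT14 probe covered 32 of its 60 bases. The array design lists the transcripts of both KRT17 and KRT14 for A_73_P037816, so its value cannot be assigned to KRT17 alone. How far a shared stretch lets 1 probe read the other transcript was not tested.

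The results also turn on KRT8 and KRT15, which had 4 probes each along their genes, and probes inside the gene are shown for both in lower case.
KRT8 A_73_P245050 (chr5:29997842-29997901, plus strand): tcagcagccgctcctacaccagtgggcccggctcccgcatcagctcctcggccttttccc
KRT8 A_73_P204142 (chr5:30001773-30002266, plus strand): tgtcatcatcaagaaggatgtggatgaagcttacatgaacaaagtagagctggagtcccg
KRT8 A_73_P500853 (chr5:30002293-30002931, plus strand): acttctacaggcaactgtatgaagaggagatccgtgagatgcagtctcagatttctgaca
KRT15 A_73_P473568 (chr19:43081759-43081818, minus strand): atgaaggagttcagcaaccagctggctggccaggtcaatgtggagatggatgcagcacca
KRT15 A_73_P455786 (chr19:43083552-43083611, minus strand): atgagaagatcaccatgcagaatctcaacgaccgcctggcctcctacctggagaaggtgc
The span of A_73_P204142 and of A_73_P500853 on the genome was longer than 60 bases, as it was for 6 of the 21 probes. On chromosome 19 the probes of the type I genes KRT15, KRT19, KRT14 and KRT17 followed in this order of position. The nearest probes of KRT15 and KRT19 were 5675 bases apart, those of KRT19 and KRT14 61623 and those of KRT14 and KRT17 43653. On chromosome 5 the probes of KRT18, the type I partner of KRT8, ended 40760 bases before those of KRT8. The KRT10 probe was placed on an unassigned piece of the assembly.

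The 9 genes were not equally well measured. Of the 21 probes 13 were well above background on all 8 arrays, 6 on some arrays and 2 on none. KRT10 was not well above background on any array. KRT18, the keratin that the study stained, was not well above background in CTR with any of its 3 probes, and was so only after 2 h (2 probes) and 16 h (1 probe). Epithelial markers other than keratins were measured, as EPCAM, CDH1, CLDN4 and MUC1 were well above background on all 8 arrays, whereas TP63, a regulator of basal cells, was on none. VIM, the filament gene of mesenchymal cells and of many cultured cells, was well above background on all 8 arrays with all 5 of its probes.

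**Figure D1:**
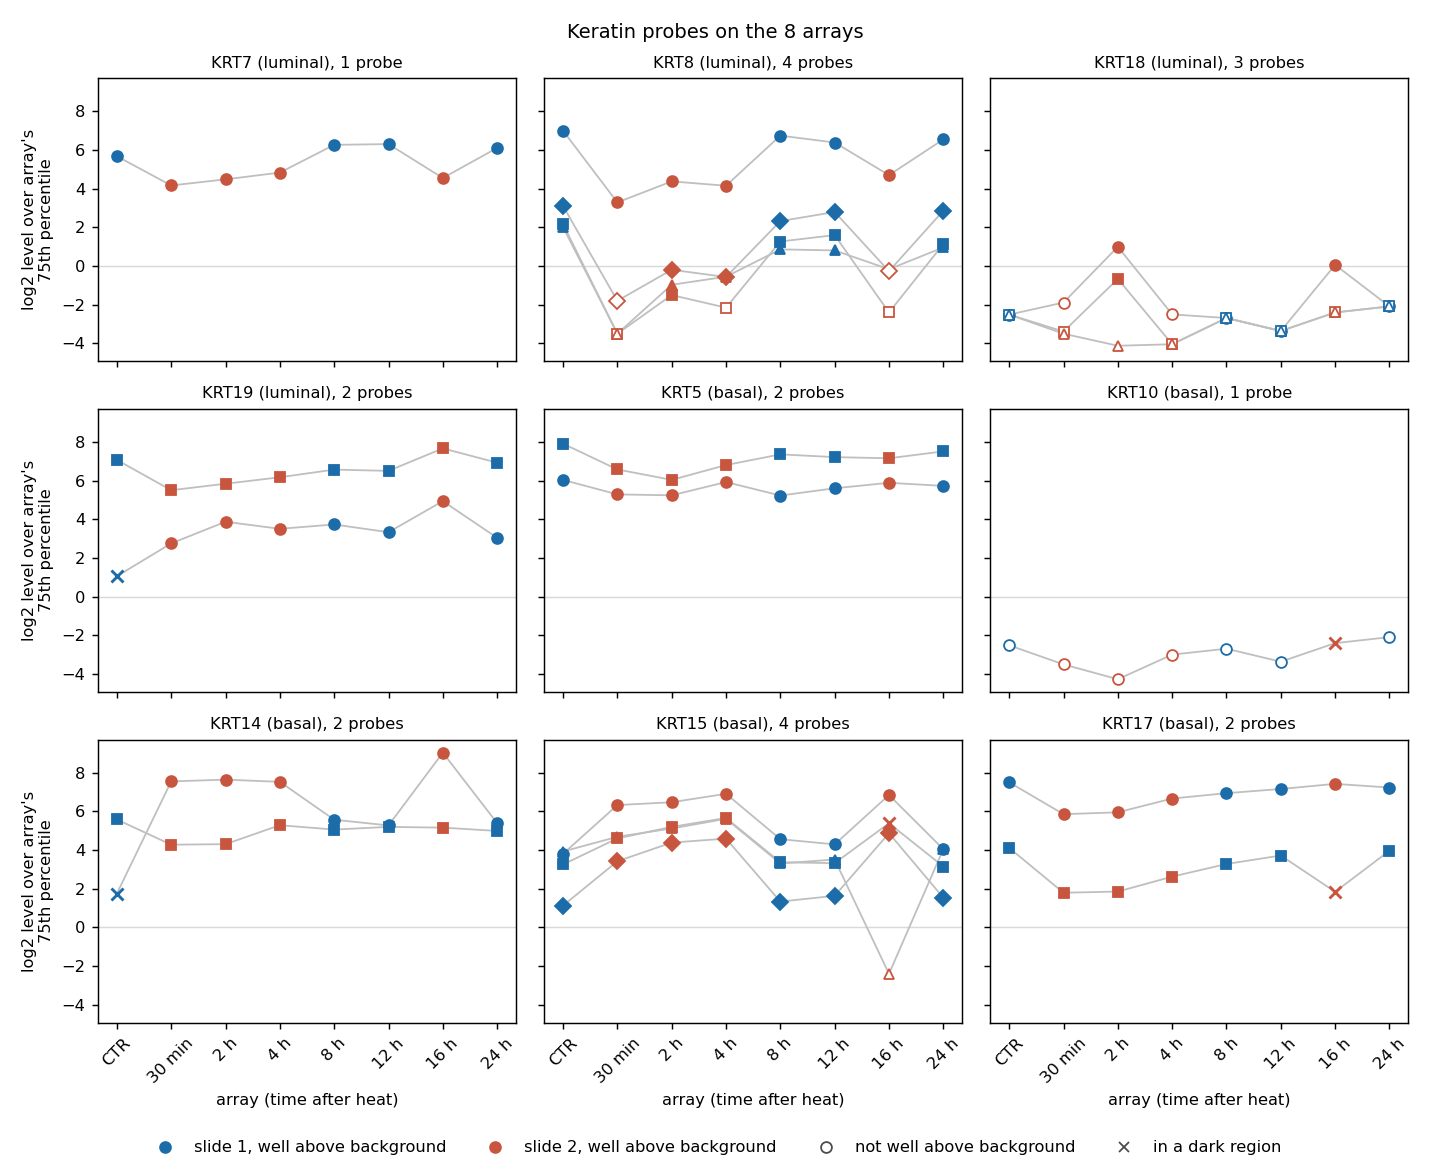
Level of every keratin probe (log2 over the 75th percentile of the array, y axis) on each of the 8 arrays (x axis, in order of time), 1 panel per gene and 1 line with its own marker per probe. Filled points were well above background, open points were not, and crosses lay in a dark region. KRT8 is low and KRT15 high on the slide 2 arrays (red), with 1 KRT15 probe at the floor after 16 h, and KRT14 shows 1 high probe at the top of the scale and 1 nearly level probe.

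KRT8, a type II keratin of simple epithelia and the partner of KRT18, had the largest decrease among the 9 genes. Its probe nearest the 3′ end, A_73_108833, was at 6.99 in CTR, 3.28 after 30 min, 4.37 after 2 h, 4.15 after 4 h, 6.74 after 8 h, 6.38 after 12 h, 4.69 after 16 h and 6.54 after 24 h. The 4 slide 2 arrays were thus all below the 4 slide 1 arrays. The inner probe A_73_P500853 was at 3.1 in CTR, 2.32 after 8 h, 2.79 after 12 h and 2.85 after 24 h, and at -0.20 after 2 h and -0.57 after 4 h, and it was not well above background after 30 min (-1.80) and 16 h (-0.27). A_73_P204142 was at 2.16 in CTR, 1.26 after 8 h, 1.59 after 12 h and 1.13 after 24 h, and at -1.51 after 2 h, while it was not well above background after 30 min, 4 h and 16 h. A_73_P245050 was at 2.01 in CTR, 0.86 after 8 h, 0.80 after 12 h and 0.96 after 24 h, and at -0.97 after 2 h and -0.56 after 4 h, and not well above background after 30 min and 16 h. In each of the 4 probes the slide 2 values therefore lay below the slide 1 values without overlap.

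Averaged over the 4 probes, KRT8 fell by 3.14 ± 0.17 after 2 h on the log2 scale, which is 8.83-fold. The mean change was -2.58 ± 0.15 after 30 min, -3.24 ± 0.17 after 4 h and -2.46 ± 0.26 after 16 h, where 3, 1 and 3 of the probes gave only a bound, so these decreases were at least as large as given. The 4 probes spread between -3.67 and -2.62 after 2 h. At 8 h, 12 h and 24 h the mean change was -0.77 ± 0.16, -0.67 ± 0.17 and -0.70 ± 0.19, larger than the technical error of a mean and under 3-fold. The single KRT8 probes ranged from -1.15 to -0.25 after 8 h, -1.21 to -0.31 after 12 h and -1.05 to -0.25 after 24 h. The smallest of these changes lay within the error of a single probe. Within slide 2, the 3′ probe was lower than after 16 h by 1.41 after 30 min, 0.32 after 2 h and 0.55 after 4 h.

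KRT7, a type II keratin of glandular ducts, was read by 1 probe. Its level was 5.67 in CTR, 6.26 after 8 h, 6.30 after 12 h and 6.10 after 24 h, and 4.16 after 30 min, 4.48 after 2 h, 4.82 after 4 h and 4.54 after 16 h. The slides did not overlap for KRT7 either, and without a local correction none of the changes from CTR reached 3-fold. The changes were -1.51 ± 0.31 after 30 min, -1.20 ± 0.34 after 2 h, -0.85 ± 0.34 after 4 h and -1.13 ± 0.51 after 16 h, against 0.59 ± 0.32, 0.63 ± 0.34 and 0.43 ± 0.39 after 8 h, 12 h and 24 h. The KRT7 spot lay beside the dark part of CTR, where neighbouring bright probes had a median of -0.63. With the local medians subtracted on all arrays the changes after 8 h, 12 h and 24 h were -0.34, -0.27 and -0.38, so their direction cannot be given. The local medians at this spot were 0.09 after 30 min, -0.01 after 2 h, 0.02 after 4 h and -0.34 after 16 h. The decreases at those times would thus be larger with this subtraction, and they are not shown to stay under 3-fold.

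KRT19, a type I keratin that lacks most of the tail, had 1 probe in the dark part of CTR. The other, A_73_P251856, was at 7.07 in CTR, 5.50 after 30 min, 5.84 after 2 h, 6.17 after 4 h, 6.57 after 8 h, 6.50 after 12 h, 7.66 after 16 h and 6.92 after 24 h. It was lowest after 30 min and highest after 16 h, both on slide 2, and its changes from CTR were -1.57 ± 0.31 after 30 min, -1.23 ± 0.34 after 2 h and 0.60 ± 0.51 after 16 h. Neighbouring bright probes had a median of 0.58 after 16 h, against 0.15 in CTR and 0.02 after 2 h. The probe in the dark part, A_73_101632, was compared among the 7 arrays after heat. Its level was 2.75 after 30 min, 3.87 after 2 h, 3.50 after 4 h, 3.73 after 8 h, 3.33 after 12 h, 4.94 after 16 h and 3.04 after 24 h, so here too the 30 min array was the lowest and the 16 h array the highest.

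KRT18 could be compared with CTR only as a bound. Its probe A_73_118812 was at 0.99 after 2 h and 0.05 after 16 h and was not well above background on the other 6 arrays. From CTR this was at least 1.19 ± 0.34 higher after 2 h and at least 0.25 ± 0.51 higher after 16 h. Within slide 2 the probe was measured at both times and was 0.93 ± 0.53 higher after 2 h than after 16 h. A_73_P097441 was well above background after 2 h alone, at -0.67, and gave no bound above CTR. KRT8 was low after 2 h while KRT18 was measurable there, and after 8 h, 12 h and 24 h KRT8 was bright while all 3 KRT18 probes were dim. Whether a dim gene counts as measured also depends on the array. The detection limit was -1.96 after 2 h, -1.73 after 4 h and -0.09 after 16 h. It was -0.20 in CTR, -0.38 after 8 h, -1.05 after 12 h and 0.22 after 24 h, and 0.22 was also used for 30 min. The 2 h level of A_73_118812 (0.99) was above each of these limits, and after 4 h the probe was dim at -2.51. Whether the bovine KRT18 probes match the buffalo transcript was not tested.

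KRT15, a type I keratin of basal cells and of stem-like cells in other epithelia, was the member with probes at least 3-fold higher than CTR. Its probe A_73_112945 was at 3.80 in CTR, 4.56 after 8 h, 4.29 after 12 h and 4.04 after 24 h, and at 6.32 after 30 min, 6.46 after 2 h, 6.90 after 4 h and 6.84 after 16 h. A_73_P473568 was at 1.12 in CTR, 1.33 after 8 h, 1.63 after 12 h and 1.53 after 24 h, and at 3.41 after 30 min, 4.38 after 2 h, 4.58 after 4 h and 4.86 after 16 h. Both probes were above every slide 1 array on every slide 2 array. A_73_P444261 was at 3.14 to 3.36 on slide 1 and at 4.60, 5.19 and 5.65 at the first 3 times, and it lay in the dark part of the 16 h array. The remaining probe, A_73_P455786, was at 3.92 in CTR, 4.68 after 30 min, 5.11 after 2 h, 5.61 after 4 h, 3.30 after 8 h, 3.50 after 12 h and 4.04 after 24 h, and at the floor of the 16 h array (-2.41).

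The mean over the KRT15 probes rose by 1.73 ± 0.16 after 30 min, 2.26 ± 0.17 after 2 h and 2.67 ± 0.17 after 4 h, the last being 6.34-fold. The single probes ranged from 0.76 to 2.52 after 30 min, 1.19 to 3.26 after 2 h and 1.69 to 3.46 after 4 h. At 16 h the 2 probes with a measured value gave 3.04 and 3.74, and the probe at the floor gave a decrease of at least 4.01, so their mean was 0.93 ± 0.30. Without that probe it was 3.39. At 8 h, 12 h and 24 h the mean change was 0.12 ± 0.16, 0.16 ± 0.17 and 0.17 ± 0.19, within the technical error. The single probes ranged from -0.62 to 0.76, -0.41 to 0.50 and -0.11 to 0.41 at those times. Some of them thus lay outside the error of a single probe, after 8 h and 12 h in both directions. KRT19, whose probe shares 44 bases with A_73_P444261, was lower where that probe was higher after 30 min, 2 h and 4 h.

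KRT14, the type I partner of KRT5 in basal cells, gave 2 different patterns. Its probe A_73_103715 lay in the dark part of CTR (1.74 there) and was compared among the 7 arrays after heat. It was at 5.56 after 8 h, 5.27 after 12 h and 5.39 after 24 h, and at 7.54 after 30 min, 7.63 after 2 h, 7.52 after 4 h and 9.03 after 16 h. The slide 2 arrays were all higher, but on them this probe was at the top of the scale. It was saturated after 2 h, 4 h and 16 h, where the brightest probe of the array was at 7.64, 7.52 and 9.06, and after 30 min the brightest was at 7.55. Its values on slide 2 are thus lower limits, and their order, including the high 16 h value, cannot be read.

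The other KRT14 probe, A_73_P309126, did not follow it. It was at 5.57 in CTR, 4.27 after 30 min, 4.30 after 2 h, 5.28 after 4 h, 5.05 after 8 h, 5.19 after 12 h, 5.15 after 16 h and 4.98 after 24 h. Its changes were -1.30 ± 0.31 after 30 min and -1.28 ± 0.34 after 2 h, and at the later times they lay between -0.59 and -0.30. Over the 7 arrays after heat, slide 2 was on average at least 2.53 higher than slide 1 with A_73_103715, whose slide 2 values are limits, and 0.32 lower with A_73_P309126, as a log2 difference of levels.

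KRT17, a type I keratin of basal and of stressed epithelia, was lower early and close to CTR late. Its probe A_73_P349856 was at 4.11 in CTR, 1.79 after 30 min, 1.85 after 2 h, 2.62 after 4 h, 3.27 after 8 h, 3.71 after 12 h and 3.96 after 24 h, and lay in the dark part of the 16 h array. It fell 4.99-fold after 30 min, and its level was higher at each later time outside the dark part. A_73_P037816, which may also read KRT14, was at 7.49 in CTR, 5.85 after 30 min, 5.94 after 2 h, 6.66 after 4 h, 6.93 after 8 h, 7.15 after 12 h, 7.41 after 16 h and 7.23 after 24 h. As a mean of both probes KRT17 fell by 1.98 ± 0.22 after 30 min and by 1.90 ± 0.24 after 2 h. The change was -1.16 ± 0.24 after 4 h, -0.70 ± 0.23 after 8 h, -0.37 ± 0.24 after 12 h and -0.21 ± 0.27 after 24 h.

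KRT5, the type II keratin of basal cells, showed smaller differences. A_73_P251266 was at 7.91 in CTR, 6.57 after 30 min, 6.03 after 2 h, 6.80 after 4 h, 7.35 after 8 h, 7.21 after 12 h (saturated), 7.15 after 16 h and 7.51 after 24 h. A_73_P048351 was at 6.03 in CTR, 5.28 after 30 min, 5.24 after 2 h, 5.92 after 4 h, 5.22 after 8 h, 5.60 after 12 h, 5.88 after 16 h and 5.72 after 24 h. With the first probe slide 2 lay below slide 1 without overlap, and with the second the slides overlapped. The mean change was -1.04 ± 0.22 after 30 min, -1.33 ± 0.24 after 2 h and between -0.68 and -0.35 at the later times.

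**Figure D2:**
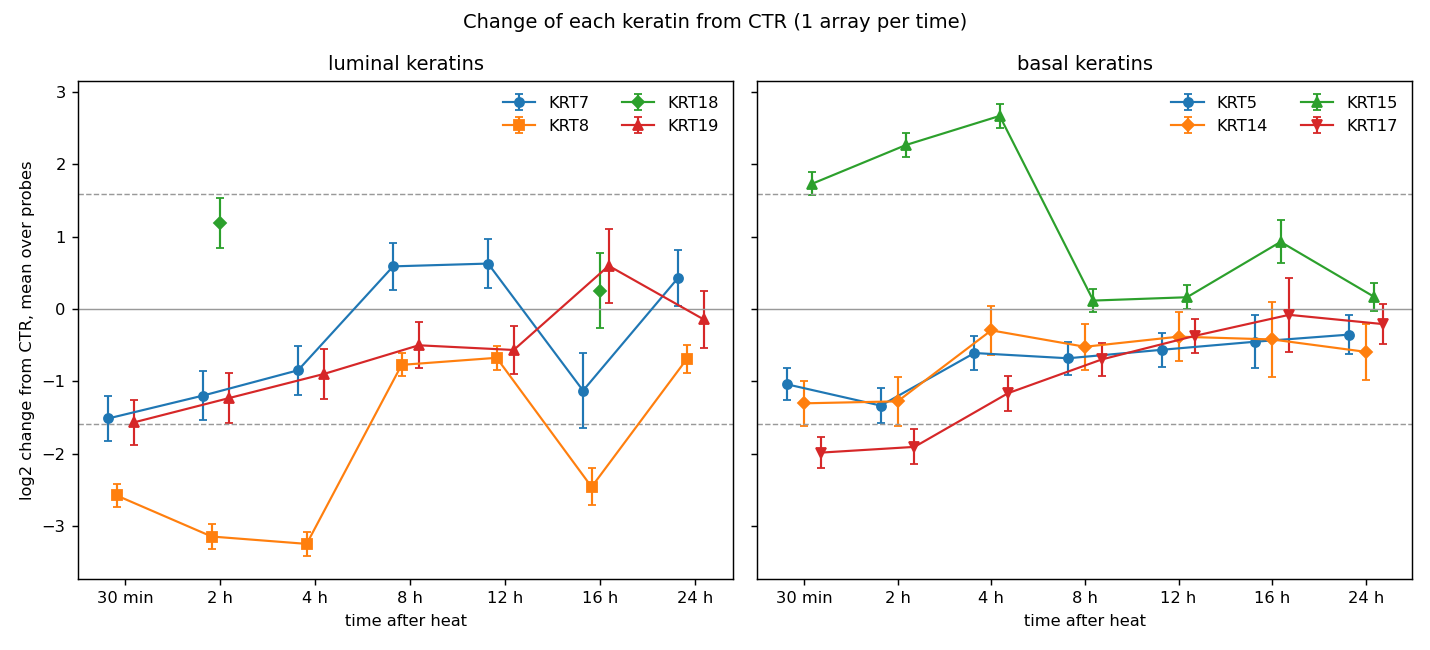
Change of each keratin from CTR (log2, mean over its probes, y axis) at the 7 times after heat (x axis), luminal keratins on the left and basal keratins on the right, with bars for the technical error and dashed lines at 3-fold. KRT18 points are lower bounds, KRT8 after 30 min, 4 h and 16 h and KRT15 after 16 h include bounds, and KRT10 has no value. KRT8 lies below and KRT15 above the 3-fold lines after 30 min through 4 h, and the other genes lie between them apart from KRT17.

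The 3-fold cutoff of the study summarises these changes. At 30 min, 6 of the 15 keratin probes that could be compared were at least 3-fold lower (all 4 of KRT8 and 2 of KRT17) and 2 were higher (both KRT15), where 4.57% of all 12396 probes compared were lower and 6.78% higher. At 2 h, 6 of 17 were lower (4 of KRT8, 1 of KRT17 and 1 of KRT5) and 3 were higher (KRT15), against 7.67% and 4.66% of all. At 4 h, 4 of 15 were lower (KRT8) and 4 were higher (KRT15), against 5.17% and 2.37%. At 16 h, 5 of 14 were lower (4 of KRT8 and the KRT15 probe at the floor) and 2 were higher (KRT15), against 3.94% and 5.05%. At 8 h, 12 h and 24 h none of 15 probes changed 3-fold in either direction, where the shares of all probes were 0.165% lower and 0.469% higher after 8 h, 0.479% and 0.116% after 12 h and 0.555% and 0.0616% after 24 h. With each array scaled to its median, 4 probes were lower after 30 min, 4 after 2 h and 3 after 4 h, and 4 and 5 were higher after 30 min and 2 h. The members called were thus probes of few genes, and probes of 1 gene are not independent.

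The within-slide comparisons gave fewer calls. Against 16 h, on the same slide, 2 of 13 keratin probes were at least 3-fold lower after 30 min (KRT19), 1 of 17 after 2 h (KRT19) and 1 of 15 after 4 h (KRT18), where 3.83%, 5.58% and 3.54% of all probes were lower. The inner KRT8 probes were not well above background after 16 h, so KRT8 could be called against it only by A_73_108833. The 13, 17 and 15 probes include some without a change value, which could not be called. The KRT19 call after 2 h rested on A_73_P251856, whose neighbouring bright probes had a median of 0.58 after 16 h. The KRT15 probe at the floor of the 16 h array was the single higher call at each of the 3 times, where 6.02%, 3.50% and 0.742% of all probes were higher. Against 8 h, on slide 1, none of 17 keratin probes reached 3-fold after 12 h or 24 h, where 0.204% and 0.811% of all probes were lower and 0% and 0.211% higher. KRT17 was 1.57 ± 0.51 lower after 30 min than after 16 h, 1.47 ± 0.53 lower after 2 h and 0.76 ± 0.53 lower after 4 h, with the probe that may also read KRT14.

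Across slides, 9 keratin probes were bright on all 8 arrays and outside the dark parts. Slide 2 was below slide 1 without overlap in 3 of them (KRT7, KRT8 and 1 of KRT5), against 12.3% of all 7149 such probes, and above it in 2 (both KRT15), against 11.4%. Among the 7 arrays after heat it was below in 3 of 11 (the same probes of KRT7, KRT8 and KRT5), against 14.5% of all, and above in 3 (KRT15 and A_73_103715 of KRT14), against 14.6%. Slide 2 minus slide 1 was -2.54 for KRT8, where 0.0979% of all bright probes were as low or lower, and -1.58 for KRT7, where 1.37% were. It was 2.46 and 2.91 for the 2 KRT15 probes, where 99.6% and 99.7% of all bright probes were as low or lower. KRT5, KRT14, KRT17 and KRT19 lay between -0.85 and -0.06, inside the range from the 5th percentile of all bright probes (-1.06) to the 95th (1.05).

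**Figure D3:**
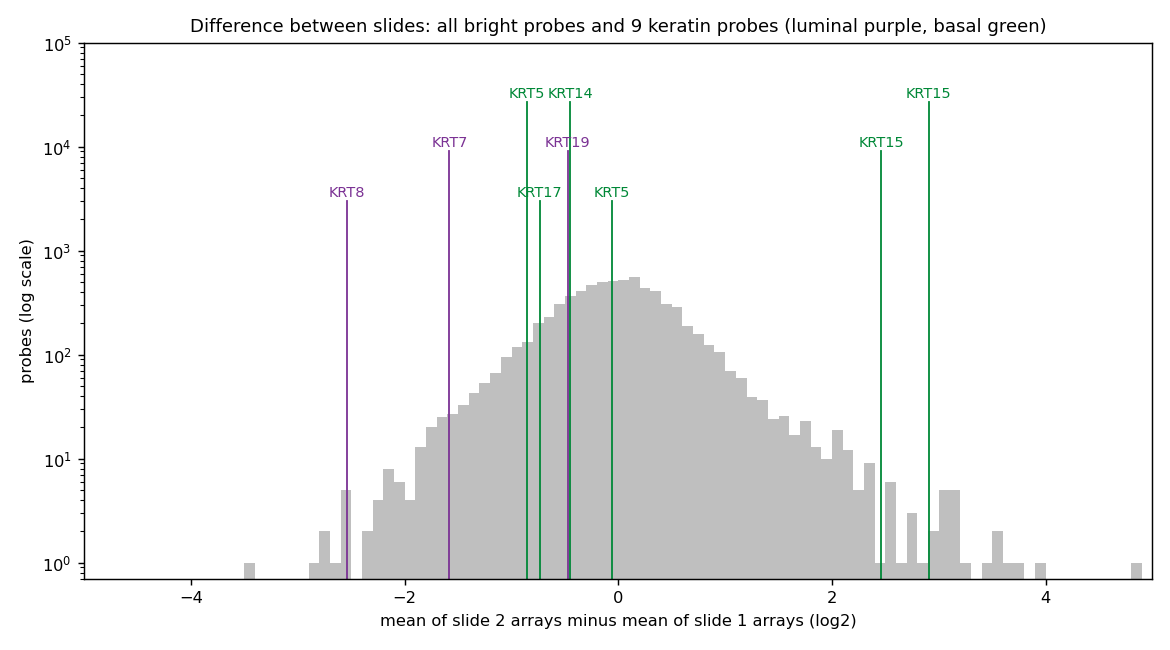
Mean level on the 4 slide 2 arrays minus mean level on the 4 slide 1 arrays (log2, x axis) for the 7149 bright probes (grey, number of probes on a log y axis), with the 9 keratin probes measured on all arrays as lines. KRT8 at -2.54, KRT7 at -1.58 and both KRT15 probes at 2.46 and 2.91 lie in the tails, and the other keratins lie nearer the middle.

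As classes, the luminal and basal keratins had similar median changes. The median over the luminal genes was -1.57 after 30 min, -1.21 after 2 h, -0.90 after 4 h, -0.50 after 8 h, -0.57 after 12 h, -0.44 after 16 h and -0.14 after 24 h, and that over the basal genes -1.17, -1.30, -0.45, -0.60, -0.38, -0.25 and -0.28. Luminal minus basal was -0.39 after 30 min, 0.09 after 2 h, -0.45 after 4 h, 0.10 after 8 h, -0.19 after 12 h, -0.19 after 16 h and 0.14 after 24 h, with 3 or 4 genes in each class. The luminal medians after 2 h and 16 h take the bound of KRT18 as its value. After 2, 8, 12, 16 and 24 h the difference was within the technical error of a single probe, and after 30 min and 4 h it was just over it. With bright probes alone, and so without the KRT18 bound, it was -0.88 after 16 h, more than the technical error of 0.51 there.

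This median hides opposite members. In the luminal class KRT8 was the lowest at all 7 times, and in the basal class KRT15 was the highest at all 7 times and KRT17 the lowest after 30 min, 2 h and 4 h. Counted over probes in place of genes, luminal minus basal was -1.11 after 30 min, -1.82 after 2 h, -2.60 after 4 h and -1.95 after 16 h, with 4 probes each for KRT8 and KRT15. With the mean over genes in place of the median it was -1.24 after 30 min, -0.53 after 2 h and -1.81 after 4 h. The class difference on slide 2 was thus larger where KRT8 and KRT15 had more weight, and its direction after 2 h changed with the summary.

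**Figure D4:**
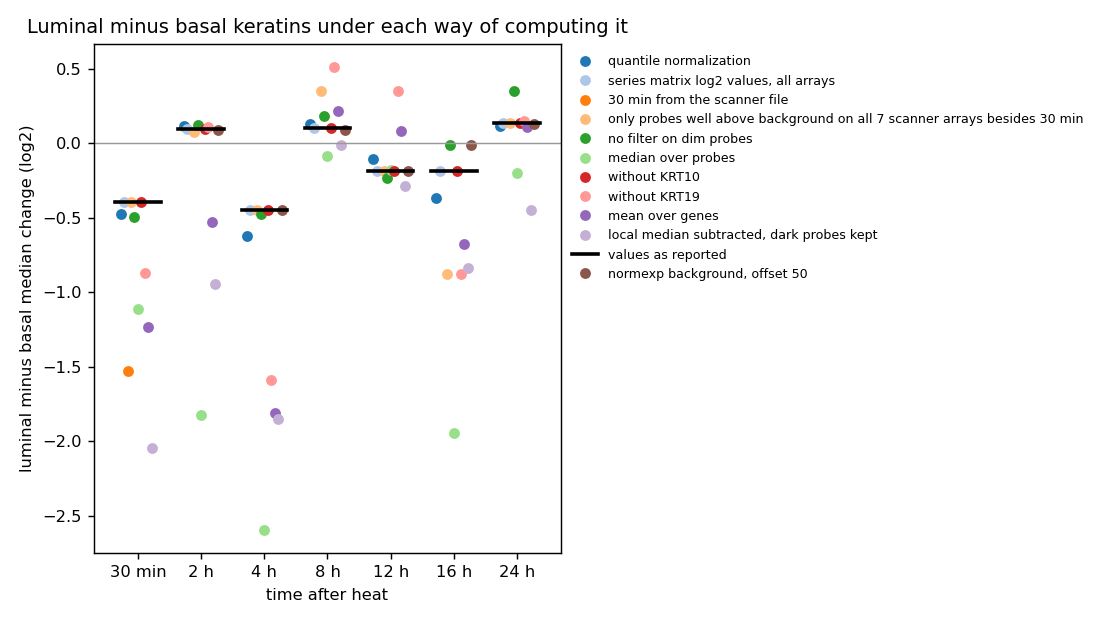
Median change of the luminal keratins minus that of the basal keratins (log2, y axis) at each time after heat (x axis), as reported (black bars) and under each other way of computing it (points). The bars lie between -0.45 and 0.14, whereas the points reach -2.60 after 4 h when every probe counts once.

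Pairs of type II and type I partners can be set side by side. The change from CTR after 2 h was -1.33 for KRT5 and, by the probe that can be compared with CTR, -1.28 for KRT14, and after 4 h it was -0.61 and -0.30. The single KRT5 probes gave -0.80 and -1.87 after 2 h and -0.11 and -1.11 after 4 h. The KRT14 value rests on A_73_P309126 alone, and A_73_103715, dark in CTR, was higher on slide 2. The likeness of this pair is thus not shown. For KRT7 and KRT19 the change from CTR was -1.20 and -1.23 after 2 h and -0.85 and -0.90 after 4 h. In CTR the bright probes around the KRT7 spot had a median of -0.63, beside the dark part. With local medians subtracted, the KRT7 decreases would be larger and those of KRT19 smaller. The closeness of these values thus depends on leaving them uncorrected. At 16 h the second pair differed, with KRT7 at -1.13 ± 0.51 and KRT19 at 0.60 ± 0.51. Bright probes around the KRT19 spot had a median of 0.58 after 16 h and 0.15 in CTR, so its rise would be smaller with local medians subtracted. KRT8 and KRT18 had no time at which both were measured against CTR. Between 2 h and 16 h, within slide 2, KRT18 was 0.93 ± 0.53 higher after 2 h and KRT8, by A_73_108833, had a difference of -0.32 ± 0.53.

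Other genes of the filament system were taken from fixed lists. Of 15 keratin partners (desmosome and linker genes) 14 had a probe, and their median change was -0.03 after 30 min, 0.08 after 2 h, 0.88 after 4 h and 0.70 after 16 h, where that of all probes compared was -0.20, -0.29, -0.11 and -0.02. Of the partners none was 3-fold lower at any time, and 1 of 11 to 12 with a change was 3-fold higher after 30 min, 2 h and 4 h, where 6.78%, 4.66% and 2.37% of all probes were higher. That one was PKP1, a desmosomal plakophilin of stratified epithelia. Its change was 1.75 after 30 min, 2.26 after 2 h, 3.03 after 4 h, 0.78 after 8 h, 1.15 after 12 h, 1.55 after 16 h and 0.58 after 24 h, so it was higher on slide 2 as KRT15 was. The changes of DSP and JUP, which tie keratins to the desmosome, were 0.75 and 1.03 after 4 h and -0.11 to 0.21 on the slide 1 arrays. TCHP, which encodes a keratin-binding protein, had changes of 1.23 after 4 h and 1.28 after 16 h. SFN, a stratifin of keratinocytes, had its lowest change after 8 h (-0.72) and its highest after 4 h (1.01), and DNAJB6, a chaperone that binds KRT18, had changes between -0.42 and 0.10. EVPL, a cornified envelope protein, was 1.97 higher after 16 h, the 1 of 11 partners past 3-fold there, where 5.05% of all probes were higher.

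Of 7 other intermediate filament genes, 2 of 4 with a change were 3-fold lower after 2 h and 2 of 5 after 4 h, where 7.67% and 5.17% of all probes were lower, and none was higher at any time. The change of LMNA, a nuclear lamin, was -1.14 after 30 min, -2.58 after 2 h and -0.75 after 4 h. That of LMNB1, also a lamin, was -1.71 after 2 h and -1.78 after 4 h. DES, the filament gene of muscle, fell by 1.61 after 4 h. VIM was at 5.47 in CTR, 4.89 after 30 min, 4.66 after 2 h, 4.15 after 4 h, 4.97 after 8 h, 5.24 after 12 h, 4.67 after 16 h and 5.40 after 24 h as a mean of 5 probes, with no 3-fold change.

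Of 38 other keratin genes 15 were well above background on at least 1 array. At 30 min, 2 of 10 with a change were 3-fold lower and 2 higher, after 2 h 3 and 1 of 10, after 4 h 2 and 3 of 12, and after 16 h 1 and 6 of 11, and after 8 h, 12 h and 24 h none. The shares of all probes lower and higher were 4.57% and 6.78% after 30 min, 7.67% and 4.66% after 2 h, 5.17% and 2.37% after 4 h and 3.94% and 5.05% after 16 h. KRT6C, a keratin of stratified and activated epithelia, was at least 4.70 higher after 30 min, 4.78 after 2 h, 5.51 after 4 h and 5.35 after 16 h and dim on slide 1. KRT6A, measured by 3 probes on all arrays, had changes of 0.11, 0.34, 0.72 and 1.09 at those times. KRT86, a hair keratin in its best known site, had changes of -2.28, -1.92, -1.69 and -1.61 at those times and of -0.18 to 0.15 on slide 1. KRT79 had changes of -2.02, -2.54, -1.38 and -0.66 at those times and of -0.63 to -0.32 on slide 1, so the 16 h array lay near slide 1. KRT80, a keratin of many epithelia, had changes of 0.47, 1.18, 1.47 and 2.00 at those times and of -0.30 to -0.04 on slide 1. KRT85, also best known from hair, had changes of 0.06, -0.02, 0.73 and 1.85 at those times.

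Of 13 epithelial regulators 1 of 8 with a change was 3-fold higher after 16 h, where 5.05% of all probes were, and none was changed 3-fold at the other 6 times. That was GATA3, a luminal regulator, with a change of 2.34 after 16 h, 1.19 after 4 h and -0.03 after 2 h. OVOL1, a repressor in differentiating epithelia, had changes of 0.98 after 30 min, 0.61 after 2 h, 1.36 after 4 h and 1.30 after 16 h. The lowest changes were those of TFAP2A, a regulator of ectodermal cells, with -0.83 after 30 min and 12 h, and KLF5, a regulator of proliferating epithelia, with -0.65 after 30 min. TP63 was dim on all 8 arrays.

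Markers of the compartments other than keratins are given for the same arrays. MUC1, an apical mucin of luminal cells, was at 1.08 in CTR, 2.85 after 30 min, 3.50 after 2 h, 4.45 after 4 h and 4.99 after 16 h with the 1 of its 5 probes that was bright on all arrays, and at 0.69 to 0.98 on the rest of slide 1. Its mean change over the probes was 1.77, 2.42, 1.55 and 2.72 on the slide 2 arrays in order of time. It was higher on slide 2, where KRT8 was lower. EPCAM and CLDN4 had changes of -1.02 and -1.20 after 30 min, and between -0.50 and 0.34 at the later times. TAGLN, a gene of contractile cells, was at 5.91 in CTR, 3.52 after 30 min, 3.38 after 2 h, 4.32 after 4 h and 4.85 after 16 h, and LAMB3, a laminin chain of basement membrane, at 4.66 in CTR, 2.24, 2.33, 2.85 and 2.49 at those times. Both were lower on slide 2, where KRT15 was higher. CNN1 and MYLK, also genes of contractile cells, were dim in CTR and went the other way. CNN1 was at least 2.15 higher after 4 h and at least 2.82 after 16 h, and MYLK was at least 1.43 higher after 16 h and also had a bound above CTR after 4 h. Of the 6 luminal markers measured on all arrays 4 were higher on slide 2 and 2 lower, and of the 8 basal or myoepithelial markers 7 were lower and 1 higher, a count that leaves out CNN1 and MYLK. The median difference was 0.63 for the luminal and -0.51 for the basal markers, against -0.01 for all bright probes. Each had the opposite sign to the keratin that moved most in its class. Keratin differences are given for probes bright on all 8 arrays and outside the dark parts. They were -0.06 and -0.85 for KRT5, -0.45 for KRT14 and -0.74 for KRT17, and only the -0.85 was without overlap of the slides. The other KRT14 probe, A_73_103715, dark in CTR, was at least 2.53 higher on slide 2 over the 7 arrays after heat. KRT15 was also higher, so the basal keratins did not all follow the basal markers. KRT7 (-1.58) and KRT19 (-0.47, with overlap) were lower, as KRT8 was. Of the whole lists, PROM1, KIT, ESR1 and PGR among 13 luminal markers and TP63 and OXTR among 16 basal markers were dim on all arrays, and LAMA3 had no probe of that name.

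**Figure D5:**
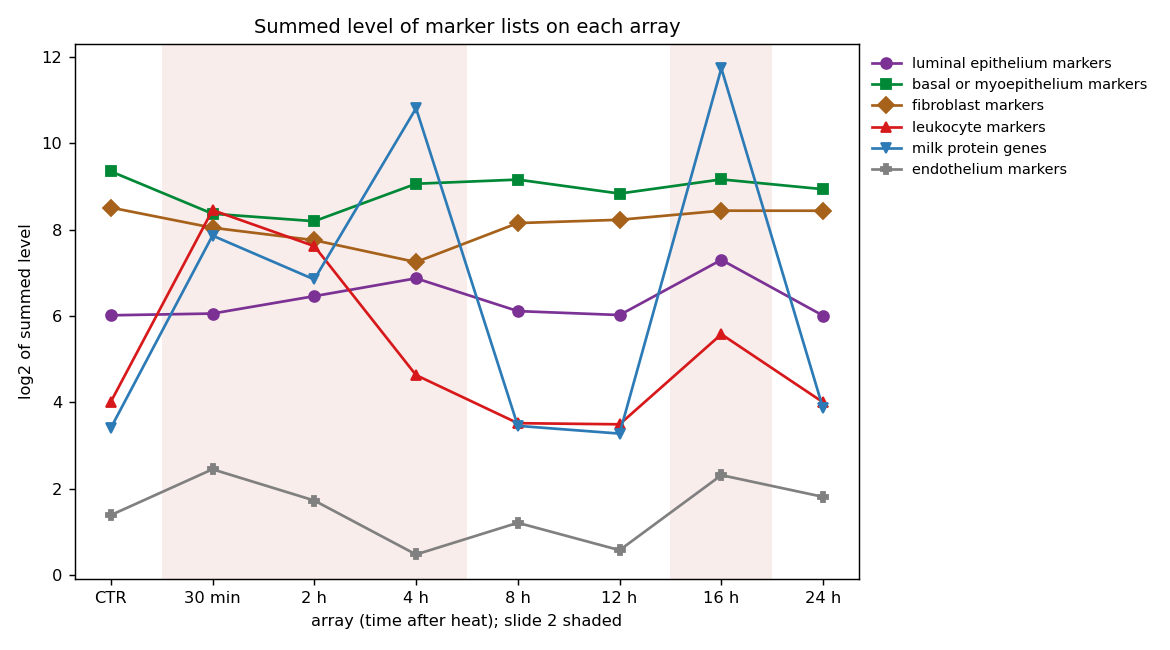
Log2 of the summed level of each marker list (y axis) on each array (x axis), with slide 2 shaded. The leukocyte list peaks after 30 min (8.45) and 2 h (7.62), the milk protein list after 4 h (10.8) and 16 h (11.7), and the epithelial and fibroblast lists vary less.

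The genes whose pattern over the arrays was most like a keratin are given as a description, over 8 arrays that share 2 slides. For KRT5 they were RPS4X (r = 0.98), PDZD11 (0.97) and PID1 (0.97). For KRT8, by its 1 probe bright on all arrays, they were FAM168B (0.99), ACTA1 (0.99) and CO879319 (0.98), and for KRT15 EHD4 (0.99), LYPD3 (0.99) and HMGA1 (0.99). No such genes are given for A_73_103715 of KRT14, whose slide 2 values are limits, and KRT18 was too dim for such a comparison.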

How the data were processed

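The authors scanned 8 1-colour arrays and made the deposited spot intensities with Feature Extraction 9.5.3.1, with no scaling between arrays. They also deposited log2 values, scaled by each array's 75th percentile and with the median of each probe taken off. Control spots and outlier-marked spots were dropped and repeated spots averaged, and the 75th percentile of an array was subtracted from its log2 intensities. At 30 min the deposited log2 value plus the median offset of the probe over the other 7 arrays was used, and detection there meant a level not under the highest limit of those arrays. A position was dark where the median of bright probes within 10 spots was -1 or lower, with at least 5 such probes. Changes were averaged over the probes of a gene and 3-fold was the cutoff. No test was made. All probes of the 9 keratins were named, and of each list the genes well above background on all arrays with the 2 largest changes each way over the 7 times. Other genes, such as KRT6C, KRT6A, EVPL, DSP and JUP, and those named from the marker lists, were chosen after their values were seen. The scripts were tested on simulated data. The keratins, lists and rules, and the added likeness of KRT8 and KRT15, were chosen with earlier results of these data known. Alternatives used normexp (limma 3.58.1, R 4.3.3), other scalings and the log2 table, with numpy and pandas in Python 3.11.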

Additional observations from a re-analysis of the deposited data

How the results depend on the processing

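No paired analysis was possible because each group had 1 array. For the keratin and class results named here, normexp background, outlier-marked spots kept, the deposited log2 table and no filter on dim probes left each value within the technical error, or each count within 1.5 times. The luminal minus basal difference moved by more than the technical error in 19 alternatives and by less in 51, and single genes or probes moved in 174, reversed in 5 and stayed in 335. With 1 vote per probe it was -1.11 after 30 min, -1.82 after 2 h, -2.60 after 4 h and -1.95 after 16 h. The mean over genes gave -1.24, -0.53 and -1.81 at the first 3 times. Without KRT19 it was -0.87 after 30 min, -1.59 after 4 h, 0.51 after 8 h, 0.35 after 12 h and -0.88 after 16 h. With bright probes alone it was -0.88 after 16 h, and with the 30 min scanner file -1.53. Local medians subtracted, an alternative added after seeing the data, gave -2.05 after 30 min, -0.95 after 2 h, -1.85 after 4 h, -0.84 after 16 h and -0.45 after 24 h. It also gave 5 keratin probes higher after 2 h and 4 after 16 h, and median scaling gave 4 after 30 min and 5 after 2 h. Against 16 h, 2 probes were lower and 1 higher after 30 min, 1 and 1 after 2 h and 1 and 1 after 4 h. Quantile normalization moved the range of KRT14 A_73_103715 over the 7 arrays after heat from 3.76 to 2.32, with its saturated values in no order. With both arrays above background, the share of all probes called higher was 3.51% after 30 min, 2.43% after 2 h, 0.0723% after 12 h and 2.99% after 16 h. With the 75th percentile over bright probes it was 0.174% lower and 0.268% higher after 12 h. The 5 that reversed were at least 3-fold from the median of the 7 arrays after heat. They became small and turned sign when 24 h, on the same slide, was the reference. After 8 h KRT14 A_73_103715 went from -1.96, against a saturated median, to 0.18, and KRT15 A_73_112945 from -1.76 to 0.52. After 12 h KRT8 A_73_108833 went from 1.68 to -0.16 and KRT15 A_73_112945 from -2.03 to 0.25. KRT15 A_73_P473568 went from -1.79 to 0.094 after 12 h. The background correction could not be set for 30 min. Signal over background limited KRT18, KRT10 and the inner KRT8 probes, and saturation limited KRT14. The cause of these shifts was not tested.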
